A study of Mus musculus with 2 samples.

Results

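The cluster of 10 matrix metalloproteinase genes on mouse chromosome 9 was examined for regions listed in ChIP-seq of the ETS factors Etv4 and Etv5. All listed regions between 50 kb before the first and 50 kb after the last of the 10 genes were taken, which are 4 of 13636 Etv4 regions and 2 of 8297 Etv5 regions. Matrix metalloproteinases are secreted or membrane-bound zinc enzymes that degrade proteins of the extracellular matrix. The cluster holds the collagenase genes Mmp13, Mmp8, Mmp1a and Mmp1b, the stromelysin genes Mmp3 and Mmp10, the macrophage elastase gene Mmp12, the matrilysin gene Mmp7, the enamelysin gene Mmp20, whose product acts in tooth enamel, and Mmp27. Several of these genes are textbook targets of AP-1, the dimers of Fos and Jun proteins, and of ETS factors, which recognise a GGAA core. Etv4 is also known as Pea3, after a sequence element of the form AGGAAG.

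The lists came from 2 ChIP-seq libraries of EpRas cells, a mouse mammary gland epithelial line (EpH4) transformed with oncogenic H-Ras, in medium with 4% serum. A TGF-β3 treatment of 1.5 h at 1 ng/ml preceded the ChIP, so both libraries share the Ras transformation and the treatment. The results hold for 1 cell line. Each antibody had 1 library, without an untreated or input library in the data used, and differences between the lists therefore have no replicate error and were not tested. The files give positions without read counts, so the depth is unknown, and a region that is not listed may have been missed at this depth. Intervals in this text are exact 95% intervals (Clopper-Pearson for shares, Poisson for counts) and cover counting error only.

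In mm10, the cluster runs from the first base of Mmp13 (chr9:7272514-7283331) to the last base of Mmp7 (chr9:7692090-7699585), and measures 427.1 kb. Between them lie, in order, Mmp12 (chr9:7344381-7369499), Mmp1b (chr9:7368239-7388047), Mmp3 (chr9:7445822-7455975), Mmp1a (chr9:7464141-7476869), Mmp10 (chr9:7502352-7510240), Mmp8 (chr9:7558456-7568485), Mmp27 (chr9:7571396-7581885) and Mmp20 (chr9:7628231-7674979). The genes are transcribed from the plus strand in 9 of 10 cases. The exception is Mmp1b, whose end overlaps the end of Mmp12. GENCODE annotates 9 of the 10 as protein coding and Mmp1a as a polymorphic pseudogene. The whole interval (chr9:7222514-7749585, 527.1 kb) has no further protein-coding gene, and its 5 other annotated genes are 4 processed pseudogenes and the antisense transcript AV064505. The nearest protein-coding neighbours are Dcun1d5, 64.3 kb before the cluster, and Tmem123, 64.5 kb after it.

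Of the 6 regions, 5 lay upstream of Mmp13 and 1 covered the start of Mmp10. Upstream of Mmp13, 3 Etv4 regions had their midpoints 32.1, 13.8 and 9.97 kb before the gene, and 2 Etv5 regions lay 13.9 and 9.22 kb before it. The remaining Etv4 region was at the Mmp10 start. The 5 regions before Mmp13 were intergenic, between Dcun1d5 and Mmp13. The other 8 genes had no region of either list, whether inside them or up to 20 kb away.

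**Figure D1:**
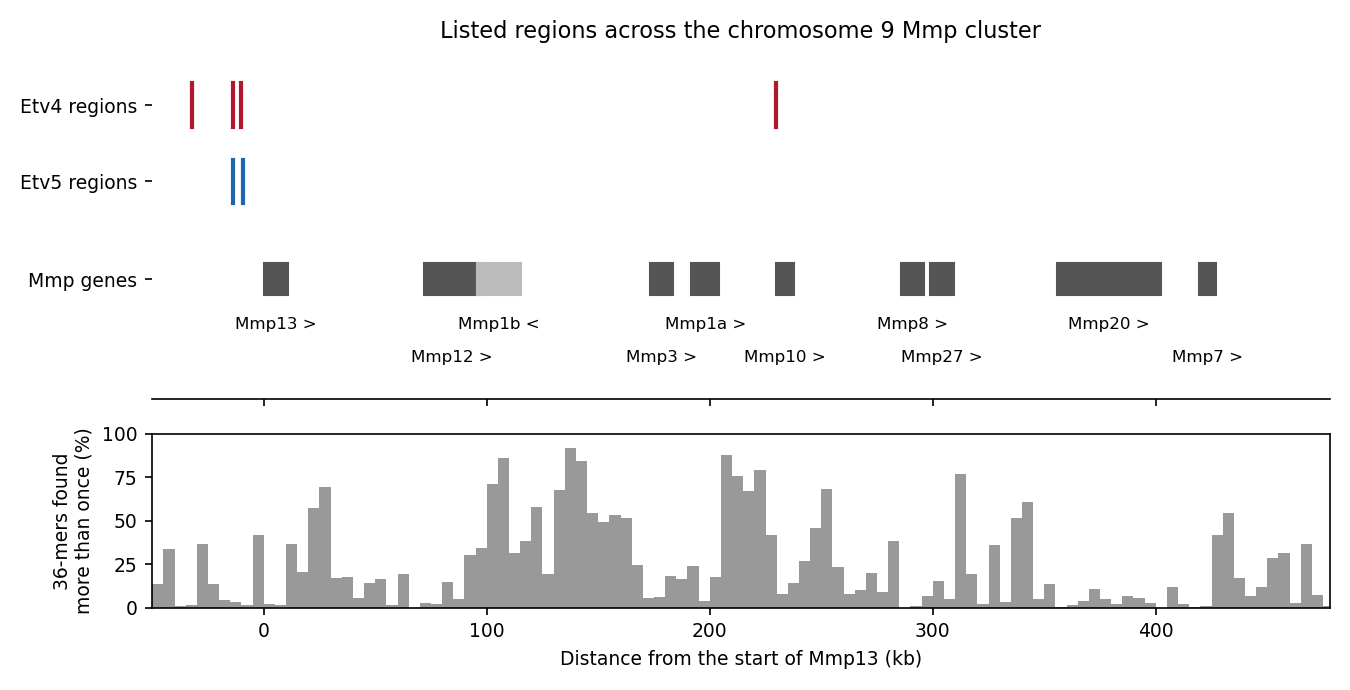
Map of the interval, with the distance from the start of Mmp13 in kb on the x axis. Upper panel, vertical lines mark the midpoints of the 4 Etv4 and 2 Etv5 regions and bars mark the genes (dark, plus strand; light, minus strand); lower panel, bars give, in percent per 5 kb, the share of 36-mers with further copies in the nuclear genome. The 5 regions before Mmp13 and the region at Mmp10 are visible, and no region lies to the right of Mmp10.

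The regions are shown here by their sequence on the plus strand of mm10, as far as they carry the patterns described. Capitals mark AP-1 sites (TGACTCA or TGAGTCA) and ETS sites in a long form (CAGGAAGT or CCGGAAGT) or a short form (AGGAAG). An ETS site on the minus strand appears as its reverse complement. TGACTCA and TGAGTCA are reverse complements of each other, so an AP-1 site has no strand of its own here. The first stretch is the 5′ part of the distal Etv4 region, which held the only ETS site of the long form (the long form CAGGAAGT and the element AGGAAG share their letters, as do both with GGAA). The second is the centre of the region found in both lists, the third is the centre of the Etv4 region nearest to Mmp13, and the fourth is the centre of the region at Mmp10.
Distal Etv4 region, chr9:7240139-7240438: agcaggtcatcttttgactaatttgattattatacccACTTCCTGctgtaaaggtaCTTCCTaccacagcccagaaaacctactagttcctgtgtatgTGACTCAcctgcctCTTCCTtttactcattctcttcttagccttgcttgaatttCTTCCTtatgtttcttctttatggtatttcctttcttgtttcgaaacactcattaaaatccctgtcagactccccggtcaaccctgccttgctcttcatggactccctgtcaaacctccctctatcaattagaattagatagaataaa
Etv5 region shared with Etv4, chr9:7258475-7258774: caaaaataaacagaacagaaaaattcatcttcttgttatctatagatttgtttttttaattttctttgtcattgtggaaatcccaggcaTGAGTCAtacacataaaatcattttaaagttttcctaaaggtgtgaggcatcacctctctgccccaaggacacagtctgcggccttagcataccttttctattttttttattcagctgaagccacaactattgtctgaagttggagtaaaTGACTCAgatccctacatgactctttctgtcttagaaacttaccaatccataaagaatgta
Proximal Etv4 region, chr9:7262390-7262689: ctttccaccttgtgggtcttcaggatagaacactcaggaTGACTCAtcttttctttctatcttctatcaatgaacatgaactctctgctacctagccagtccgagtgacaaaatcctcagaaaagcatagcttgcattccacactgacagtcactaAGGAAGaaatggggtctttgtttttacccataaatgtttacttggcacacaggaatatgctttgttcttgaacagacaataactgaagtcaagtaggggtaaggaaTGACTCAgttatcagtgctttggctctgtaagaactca
Etv4 region at Mmp10, chr9:7502033-7502332: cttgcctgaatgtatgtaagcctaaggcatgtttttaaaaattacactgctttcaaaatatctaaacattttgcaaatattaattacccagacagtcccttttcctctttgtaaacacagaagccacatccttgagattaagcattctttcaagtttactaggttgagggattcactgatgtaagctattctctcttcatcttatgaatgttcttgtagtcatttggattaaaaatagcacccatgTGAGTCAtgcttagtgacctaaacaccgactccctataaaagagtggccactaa

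The distal Etv4 region (chr9:7240139-7240633, 495 bp) was intergenic and overlapped no Etv5 region. The nearest Etv5 region was 17.8 kb away. Its midpoint was 2007 bp from the nearest transcript start, that of the pseudogene Gm47741, and thus just outside the limit of 2 kb that defines nearness to a start here. In 495 bp it held 9 GGAA cores. The core is present in 99.8% of Etv4 regions, 99.7% of Etv5 regions and 99.4% of tiles of 500 bp from the rest of the interval, so its presence does not set any region apart. Of these, 4 were AGGAAG elements, all on the minus strand, and 1 of the 4 was part of the long ETS site at chr9:7240176-7240183. An AP-1 site followed at chr9:7240237-7240243. The sites lay in the upstream part of the region, 207 and 146 bp before its midpoint.

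The middle pair was the only place at which the lists coincided. The Etv4 region (chr9:7258268-7259110) measured 843 bp and the Etv5 region (chr9:7258452-7258799) 348 bp. All of the 348 bp of the Etv5 region lay within the Etv4 region and made up 41.3% of it. The pair contained 2 AP-1 sites, at chr9:7258564-7258570 and chr9:7258714-7258720, and no AGGAAG element. The Etv4 region had 6 GGAA cores and the Etv5 region 2. Region numbers differed in rank: the Etv4 region was number 1241 of 13636, within the first 9.10% of its list, whereas the Etv5 region was number 5042 of 8297, at 60.8%. The criterion behind the numbers is not stated. Only 19.1% of Etv4 regions were at least as long as the Etv4 region of the pair, compared with 83.9% of Etv5 regions for its partner.

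Nearest to Mmp13, an Etv4 region (chr9:7262357-7262723, 367 bp) and an Etv5 region (chr9:7263008-7263579, 572 bp) lay side by side without overlap, separated by 284 bp. The Etv4 region carried 2 AP-1 sites, at chr9:7262429-7262435 and chr9:7262652-7262658, with an AGGAAG element between them at chr9:7262546-7262551, 8 bp from the midpoint. It was number 12249 of its list, among the last regions. The Etv5 region had 5 GGAA cores but no AP-1 site, no AGGAAG element and no long ETS site. It was number 4781 of 8297.

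**Figure D2:**
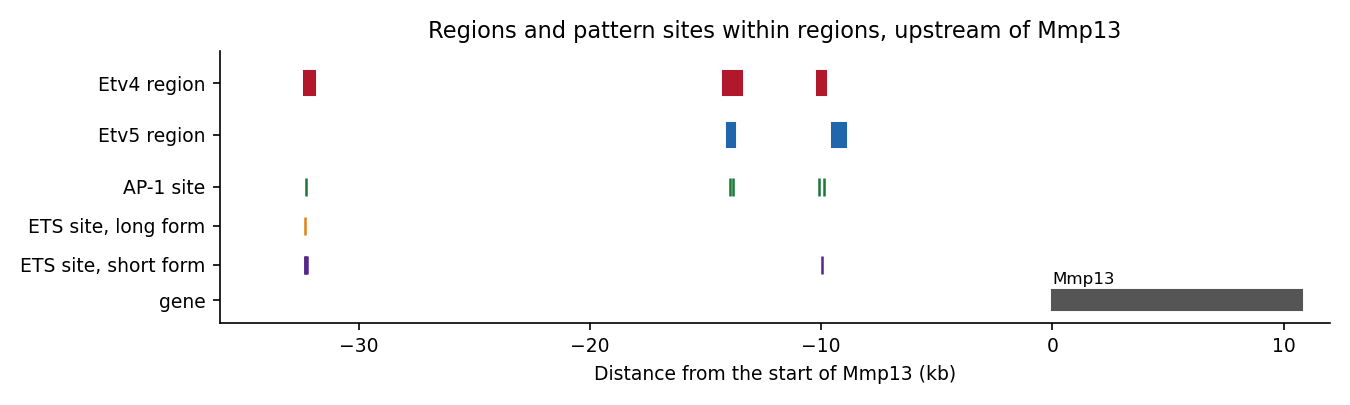
Regions nearest to Mmp13, with the distance from its start in kb on the x axis. Boxes are regions drawn to scale (red, Etv4; blue, Etv5), ticks are sites found inside regions, and the grey bar is the gene. AP-1 sites occur in all 3 Etv4 regions and in 1 of 2 Etv5 regions, and the long form of the ETS site occurs only in the most distal region.

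The region at Mmp10 (chr9:7501821-7502546, 726 bp) was the only one at the start of a gene. By midpoints within 2 kb of a transcript start, 1 of 4 Etv4 regions (interval 0.631 to 80.6%; list, 36.5%) and 0 of 2 Etv5 regions (interval up to 84.2%; list, 33.0%) were near one. The region at Mmp10 extended 531 bp upstream of the GENCODE start and 195 bp into the gene, of which 147 bp were exon and 48 bp intron. No Etv5 region lay within 238.2 kb of it. It contained 7 GGAA cores, including an AGGAAG element on the minus strand at chr9:7501973-7501978, and an AP-1 site at chr9:7502279-7502285, 73 bp before the GENCODE start. The RefSeq start lies 10 bp upstream of that of GENCODE, and the site 63 bp before it. It was number 3862 of its list, at 28.3%, and 29.3% of Etv4 regions were at least as long.

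**Figure D3:**
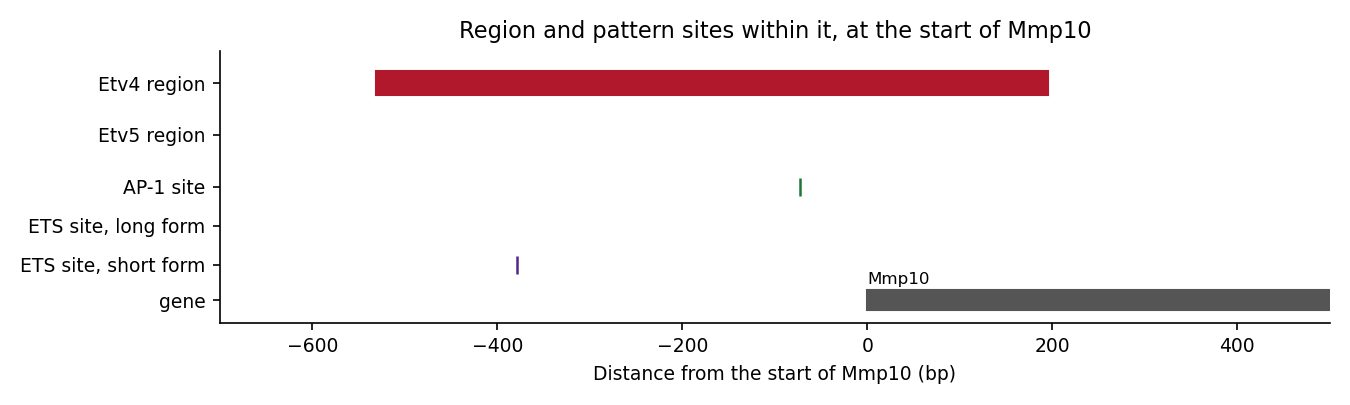
The Etv4 region at Mmp10, with the distance from the GENCODE start of Mmp10 in bp on the x axis. The red box is the region, ticks are sites inside it and the grey bar is the gene. The AP-1 site lies 73 bp before the start, and the row for Etv5 regions is empty.

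The 6 regions were then compared with the lists they came from. All 4 Etv4 regions carried an AP-1 site in 500 bp around the midpoint (interval 39.8 to 100%), compared with 37.4% of all nuclear Etv4 regions. Of the Etv5 regions, 1 of 2 did (interval 1.26 to 98.7%), compared with 35.8% of the list. In 1042 tiles of 500 bp from the rest of the interval, the share was 9.21%. The shared pair counts in both lists with the same sites. Within the central 200 bp, 1 of the 4 Etv4 regions had an AP-1 site (24.0% of the list), and in the other 3 the sites lay further from the midpoint. The long ETS site was present in 1 of 4 Etv4 regions (interval 0.631 to 80.6%; list, 10.2%) and 0 of 2 Etv5 regions (interval up to 84.2%; list, 7.95%), and in 3.65% of the tiles. AGGAAG was found in 3 of 4 Etv4 regions and 0 of 2 Etv5 regions. This element is frequent, with 52.7% of Etv4 regions, 51.6% of Etv5 regions and 43.2% of the tiles containing it. RUNX sites (TGTGGTT or TGTGGTC, 24.7 and 23.9% of the lists and 17.0% of the tiles) and palindromic pairs of Smad boxes (GTCTAGAC, 0.792 and 0.760% of the lists and 0.384% of the tiles) were found in 0 of the 6 regions. For both, the upper bound was 60.2% for the 4 Etv4 regions and 84.2% for the 2 Etv5 regions. The shares rest on 4 and 2 neighbouring regions and are given as a description, without a test against the lists.

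The GC content of the 6 regions was between 35.1 and 43.1%, compared with medians of 49.2% in the Etv4 and 48.5% in the Etv5 list. Each was below the first quartile of its list, and the interval as a whole had 40.9%. The share of repeat-masked bases ranged from 6.81 to 42.2%, with medians of 8.96 and 8.73% in the lists. It was highest in the shared pair, at 41.5% in the Etv4 and 42.2% in the Etv5 region. In 5 of the 6 regions every 36-mer was unique in the nuclear genome, and in the proximal Etv5 region 1.49% were not.

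Overlap between the lists was 1 of 4 for Etv4 (interval 0.631 to 80.6%) and 1 of 2 for Etv5 (interval 1.26 to 98.7%), which leaves the shares of the whole lists, 37.8 and 63.1%, within counting error. When a gap of up to 500 bp was allowed, the pair nearest to Mmp13 counted as well, giving 2 of 4 and 2 of 2. The shares of the whole lists were 40.4 and 65.6% by the same rule.

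The density of the interval could not be told from the genome mean with so few regions. It had 7.59 Etv4 regions per Mb, 1.47 times the mean of the nuclear genome (interval 0.402 to 3.77), and 3.79 Etv5 regions per Mb, 1.21 times the mean (interval 0.147 to 4.38). Among 5034 genome tiles of the same length, 25.2% had at least 4 Etv4 regions and 33.8% at least 2 Etv5 regions. The median tile had 1 region of each list. Within the interval the regions were unevenly spread. The 50 kb before Mmp13 held 3 Etv4 and 2 Etv5 regions, against 0.257 and 0.157 at the genome mean (ratios of 11.7, interval 2.40 to 34.1, and 12.8, interval 1.55 to 46.2). The 427.1 kb of the cluster itself held 1 Etv4 region (2.20 at the genome mean, ratio of 0.455, interval 0.0115 to 2.53) and no Etv5 region (1.34 at the genome mean, ratio of up to 2.76). Both of the latter intervals include the genome mean. All of these intervals assume regions spread evenly over the genome. The tiles were uneven, with a median of 1 region and at most 76 for Etv4 and 64 for Etv5, so the intervals are too narrow. The 50 kb before Mmp13 was also singled out with the positions of the regions known, and an excess there was not tested. In the longer 50% of the lists, 1 Etv4 and 1 Etv5 region remained before Mmp13, and in the first 50% by region number 1 and 0, with 1 Etv4 and 0 Etv5 regions in the cluster in both cases. Relative to the genome mean of the same subset, the ratios before Mmp13 were 7.77 for Etv4 in both cases, 12.8 for the longer Etv5 regions and 0 for the Etv5 regions with low numbers. Each of these ratios rests on at most 1 region and is given without an interval, so none shows an excess over the genome mean. Of 21938 protein-coding genes, 6.20% had at least 3 Etv4 regions in the 50 kb before their start, 6.40% had at least 2 Etv5 regions, and 3.41% had both. These limits were set to the values of Mmp13 after they were seen.

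**Figure D4:**
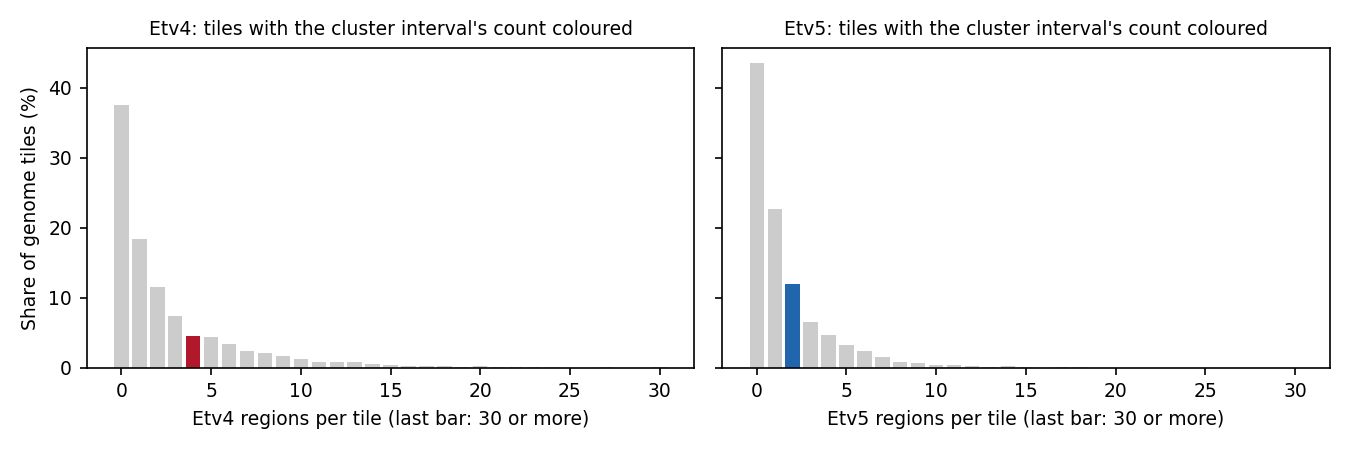
Share of genome tiles as long as the interval (y axis, percent) by the number of regions they hold (x axis), for Etv4 (left) and Etv5 (right). The coloured bar is the number found in the interval, 4 for Etv4 and 2 for Etv5; 37.5 and 43.5% of the tiles hold 0.

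The stretches of 527.1 kb on either side of the interval held 0 Etv4 regions (ratio to the genome mean of up to 1.36 for each) and, for Etv5, 0 before and 1 after it (ratios of up to 2.24 and of 0.606, interval 0.0153 to 3.38). These intervals include the genome mean. The next Etv4 region before the distal one ended 764.9 kb away, and the next one after Mmp10 began 857.1 kb away. Between these neighbouring Etv4 regions, each of which overlapped an Etv5 region, lie 1.88 Mb (chr9:6475225-8359637) with 3 Etv5 regions. The Etv5 region just outside the interval (chr9:7764592-7764911) began 65.0 kb after the cluster and lay 0.710 kb inside Tmem123. The outermost region just within the interval was the distal Etv4 region, 31.9 kb before the cluster.

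Counted by gene, 1 of 10 genes (Mmp10) had an Etv4 region inside it, compared with 23.0% of protein-coding genes, and 0 of 10 had an Etv5 region inside, compared with 14.7%. Within 2 kb of a transcript start the counts were again 1 and 0, compared with 17.9 and 10.6%. Within 50 kb of the gene, 4 of 10 had an Etv4 region (53.4% of protein-coding genes) and 1 of 10 an Etv5 region (42.7%). The 4 genes were Mmp13, Mmp3, Mmp1a and Mmp10, but Mmp3 and Mmp1a were counted for the region at Mmp10, so the neighbours are not independent. At 20 kb, Mmp13 and Mmp10 had an Etv4 region (40.0% of protein-coding genes) and Mmp13 an Etv5 region (29.2%), and the same genes had one at 10 kb (33.2 and 23.0%). The exact intervals for 0, 1, 2 and 4 of 10 genes (up to 30.8%, 0.253 to 44.5%, 2.52 to 55.6% and 12.2 to 73.8%) included each of these backgrounds, so the counts could not be told from them, and neighbouring genes that share regions carry less information than these intervals assume. The 13 Mmp genes outside the cluster, which include Mmp14 and Mmp2, provide a comparison of similar genes. Of these, 4 had an Etv4 region and 3 an Etv5 region inside the gene, and 10 and 8 had one within 50 kb.

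From each gene start, the distance to the nearest region was shortest for Mmp10 in the Etv4 list (0.169 kb) and for Mmp13 in the Etv5 list (9.22 kb). For Mmp13 the nearest Etv4 region was 9.97 kb away. Of the stromelysin genes, Mmp10 had its region at the start, whereas Mmp3 was 56.4 kb from the nearest Etv4 region. Of the other collagenase genes, Mmp1a was at 38.0, Mmp8 at 56.3 and Mmp1b at 114.1 kb. Mmp27 was at 69.2, Mmp12 at 81.8, Mmp20 at 126.0 and Mmp7 at 189.9 kb. The median of the 10 genes was 62.8 kb, compared with 60.3 kb for all protein-coding genes and 28.8 kb for the other Mmp genes. The nearest Etv5 region was nearer than the nearest Etv4 region for Mmp13, Mmp12 (81.1 kb) and Mmp7 (72.7 kb), and further away for the other genes. This order has no reference here, since its share over all protein-coding genes is not given and the Etv5 list is shorter (8297 against 13636 regions). The longest Etv5 distance was that of Mmp10, at 239.1 kb. For Mmp8, Mmp27, Mmp20 and Mmp7 the nearest was the region in Tmem123, outside the interval. The Etv5 median over all 10 was 159.5 kb, compared with 93.8 kb for protein-coding genes and 30.8 kb for the other Mmp genes.

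**Figure D5:**
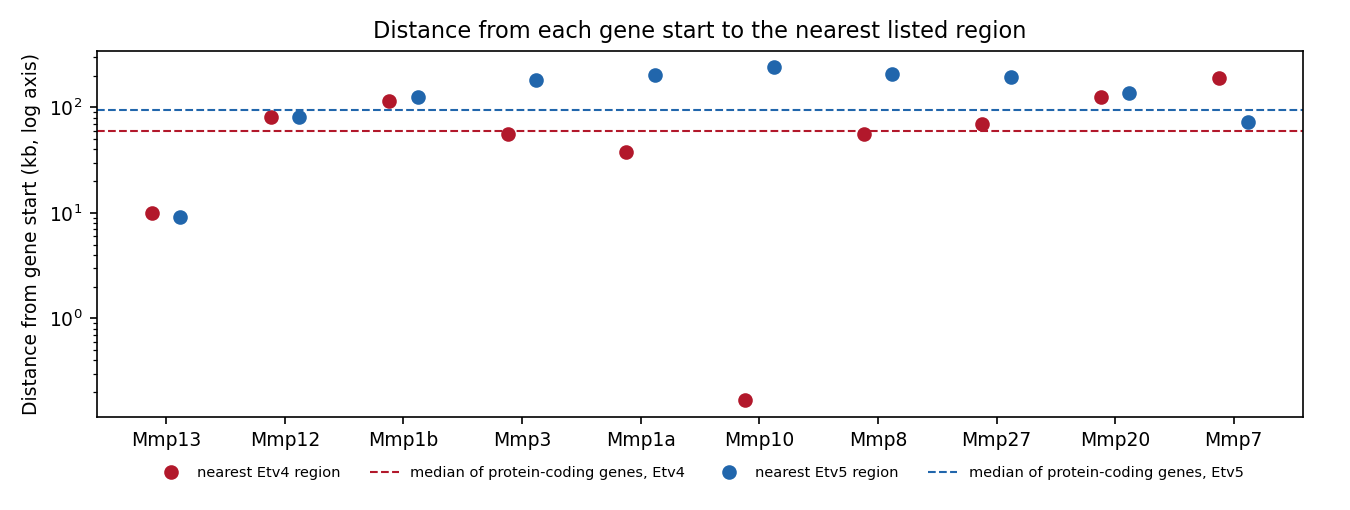
Distance from the start of each gene to the midpoint of the nearest Etv4 (red) or Etv5 (blue) region, in kb on a log axis, with the genes in chromosomal order on the x axis. Dashed lines are the medians over all protein-coding genes (60.3 kb for Etv4, 93.8 kb for Etv5). Both points of Mmp13 and the Etv4 point of Mmp10 lie below the first quartiles of these genes (13.1 kb for Etv4, 27.4 kb for Etv5, not drawn).

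Parts of the cluster are repeated in the genome. Over the interval, 24.8% of 36-mers had further copies in the nuclear genome, and 47.1% of bases were repeat-masked. The share of repeated 36-mers was 56.9% in Mmp1b, 51.0% between Mmp1b and Mmp3, and 69.3% between Mmp1a and Mmp10. It was between 0.550 and 13.8% in the other 9 genes, lowest in Mmp7 and Mmp8. How the authors treated reads with several positions is not given in the sources used here, and an influence of these repeats on the number of regions was not tested. The repeat shares are given without a genome-wide value.

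Finally, the starts of the 10 genes were searched in RefSeq promoter sequences of 300 bases (250 before to 50 after the start, GRCm38.p6), which were found for all 10 (12 starts, since Mmp12 and Mmp7 have a pair each). The windows are not independent: the pair of Mmp7 overlaps, and the promoters of Mmp1a and Mmp1b have 74.7% identity. The shares of windows with a pattern are therefore a description, without a test against all promoters. An AP-1 site was present in 7 of 12, each in a different gene, while 5.20% of all 32851 promoters contain it. The genes were Mmp13, Mmp12, Mmp1b, Mmp3, Mmp1a, Mmp10 and Mmp7, and the site began between 93 and 35 bp before the start. In Mmp12 it was in the window chr9:7347124-7347423, inside the gene, and not in that at the gene start (chr9:7344147-7344446). In Mmp7 it was in the window chr9:7691840-7692139 and not in the other. Mmp8, Mmp27 and Mmp20 had none. Of these 7 sites, only that of Mmp10 lay under a region. They are printed here beside those of the regions, 5′ to 3′ on the strand of the gene (minus for Mmp1b) or, for regions, on the plus strand, with the AP-1 site in capitals, so that their flanks can be compared. Of the 7 promoter sites, that of Mmp13 reads TGACTCA and the others read TGAGTCA. These forms are reverse complements of each other, that is, the same site read on opposite strands, so only the orientation differs.
Distal Etv4 region, chr9:7240226-7240254: tcctgtgtatgTGACTCAcctgcctcttc
Shared pair, first site, chr9:7258553-7258581: aatcccaggcaTGAGTCAtacacataaaa
Shared pair, second site, chr9:7258703-7258731: gttggagtaaaTGACTCAgatccctacat
Proximal Etv4 region, first site, chr9:7262418-7262446: aacactcaggaTGACTCAtcttttctttc
Proximal Etv4 region, second site, chr9:7262641-7262669: ggggtaaggaaTGACTCAgttatcagtgc
Mmp10 start, under the Etv4 region, chr9:7502268-7502296: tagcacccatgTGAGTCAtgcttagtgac
Mmp13 start, chr9:7272468-7272496: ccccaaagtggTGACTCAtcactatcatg
Mmp12 start, chr9:7347319-7347347: gacatcaacagTGAGTCAgatagaggatt
Mmp1b start, chr9:7388102-7388130: gttacaaagccTGAGTCAtatagcctctg
Mmp3 start, chr9:7445765-7445793: ggaagcaattaTGAGTCAgttttcgggtg
Mmp1a start, chr9:7464057-7464085: gttgtcaaccaTGAGTCAcatagcctctg
Mmp7 start, chr9:7692016-7692044: aagtgtgcaaaTGAGTCAcctatttccac

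The long ETS site was in 0 of the 12 promoter windows (7.07% of all promoters). AGGAAG was in 8 of 12 (35.4% of all promoters), in 7 genes, and Mmp10 was not among them. RUNX sites were in 4 of 12 (9.27% of all promoters), in Mmp13, Mmp1b, Mmp27 and Mmp7. AGGAAG, AP-1 and RUNX sites occurred together in the windows of Mmp13 and Mmp1b, and over both starts of Mmp7. The share of all promoters with this combination is not given, so the combination is a description of these sequences only. The Mmp13 promoter had a RUNX site from 119 to 113 bp, AGGAAG elements from 109 to 104 and from 62 to 57 bp, and the AP-1 site from 35 to 29 bp before the start, and no region of either list covered this promoter or that of Mmp1b. The 250 bases before both starts are given here, Mmp13 without and Mmp10 with a region, with AP-1 and AGGAAG in capitals.
Mmp13, no region, chr9:7272264-7272513: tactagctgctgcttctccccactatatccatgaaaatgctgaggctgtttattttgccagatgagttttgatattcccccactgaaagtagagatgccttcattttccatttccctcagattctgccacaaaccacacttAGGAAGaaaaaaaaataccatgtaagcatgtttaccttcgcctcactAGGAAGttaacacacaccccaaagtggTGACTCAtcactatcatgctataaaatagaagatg
Mmp10, Etv4 region, chr9:7502092-7502341: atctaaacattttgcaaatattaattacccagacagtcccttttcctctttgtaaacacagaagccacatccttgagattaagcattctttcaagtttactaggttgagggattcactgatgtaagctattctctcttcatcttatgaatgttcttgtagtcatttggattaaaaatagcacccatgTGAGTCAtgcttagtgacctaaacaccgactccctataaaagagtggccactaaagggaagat

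In pairwise global alignments of these promoters, Mmp1a and Mmp1b were the most similar pair, with 74.7% identity, followed by the stromelysin genes Mmp10 and Mmp3 with 57.9%. The other pairs had between 46.6 and 54.2%. No identity between unrelated promoters is given as a reference, so the 57.9% cannot be read as a similarity particular to the stromelysin genes.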

How the data were processed

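ChIP-seq was performed with a rabbit polyclonal antibody to Etv4 and a mouse monoclonal antibody to Etv5. The authors called regions per library with the one-sample mode of CisGenome (window of 300 bp, p threshold of 0.1), without a control library. Bowtie and mm10 are named in the submitters' processing notes. The deposited lists have 6 columns, with positions in bp of mm10, a region number of unstated meaning and a score. The deposited score is 1000 in every row and was not used. The depth is unknown.

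Samples were grouped by antibody. Gene positions came from GENCODE M21 and sequences from GRCm38, the assembly of mm10, and promoters from RefSeq (GRCm38.p6). Coordinates count from 1. Regions overlapped when at least 1 bp was shared. Each pattern was looked for on either strand, in the 500 bp centred on a region, and 36-mers were counted in chromosomes 1 to 19, X and Y. Genome tiles with more than 50% unknown bases were left out. The text names all 10 genes, all regions in the interval, and the nearest coding gene on each side. Members, patterns and alternatives were chosen with earlier results of these data known. No test was made, since each antibody had 1 library. Simulated data were used to check the functions, which found 700 of 700 planted overlaps and 400 of 400 planted sites. The software was Python 3.11.15 with Biopython 1.88, numba 0.67.0, pandas 2.3.3, numpy 2.4.6, matplotlib 3.10.9 and scipy 1.17.1. Alternatives covered margins, distances, list subsets, overlap rules and pattern forms.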

Additional observations from a re-analysis of the deposited data

How the results depend on the processing

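The counts were recomputed under other margins, distances, list subsets, overlap rules and pattern forms, and under settings added after seeing the data (a gap of up to 500 bp, AGGAAG as the ETS site, and the list subsets for the 50 kb before Mmp13). Of the former values 38 stayed within 1.5 times the main count, or within the interval of the ratio, and 26 moved; of the latter 1 stayed and 7 moved. Unless the setting itself explains it, the cause was not tested. Without the 50 kb margins, 1 Etv4 and 0 Etv5 regions were left, with 0 overlaps, 0 Etv4 regions with a long ETS site, 1 with an AP-1 site and 0 Etv5 regions with an AP-1 site, and an Etv5 density of 0 times the genome mean. In the longer 50% of the lists, 2 Etv4 and 1 Etv5 regions were left (1 and 1 in the 50 kb before Mmp13), and in the first 50% by region number 2 and 0 (1 and 0 before Mmp13). In both cases 0 regions of either list overlapped, as was so when 50% of both regions had to be shared. With the gap allowed, 2 Etv4 and 2 Etv5 regions overlapped. The long ETS site was in 0 Etv4 regions within 200 bp of sequence or with CCGGAAGT alone. The GGAA core, found in nearly all regions of the lists, was in 4 Etv4 and 2 Etv5 regions and AGGAAG in 3 Etv4 regions. An AP-1 site lay in the central 200 bp of 1 Etv4 region. At 20 kb or 10 kb, or by nearest start, 2 genes had an Etv4 region. The density over the genome mean stayed between 0.455 and 1.56 for Etv4, and between 0.995 and 1.53 for Etv5 except for the setting without margins. No paired analysis was possible because only 1 library was made per antibody. With 6 regions and unknown depth, counting error limits every share.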
